A study of Mus musculus with 4 samples.

Results

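CpGs with A or T directly before the C and directly after the G were examined in mouse embryonic stem cells of the E14 line by MAB-Seq, bisulfite sequencing preceded by enzymatic methylation. They were chosen by sequence alone, from the 5 bases given around each CpG in the list of the wild-type whole-genome library numbered 1, here the first library. Of the 331875 CpGs in that list, 57476 met the rule, or 17.3% (95% interval 17.2% to 17.4%). The other 274399 CpGs had G or C on at least 1 side. The study held 4 libraries of genomic DNA: 2 whole-genome libraries labelled wt, and a pair of reduced-representation libraries, 1 from cells given a control shRNA and 1 from cells given Tdg shRNA. For the latter pair the enzyme MspI, whose site is CCGG, had cut the DNA, so that its lists hold CpGs near such sites. The DNA of all groups was treated with the CpG methyltransferase M.SssI before bisulfite. Each list is the authors' own calls from 1 library. Whether separate cultures gave the wild-type libraries is not given in the sources used here, and the extent of the Tdg depletion was not analysed here.

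TET enzymes oxidise 5-methylcytosine to 5-hydroxymethylcytosine, 5-formylcytosine (5fC) and 5-carboxylcytosine (5caC), and the glycosylase TDG excises the last of these forms, 5fC and 5caC, so that repair restores plain cytosine. M.SssI methylates unmodified CpGs, and 5-methyl- and 5-hydroxymethylcytosine resist bisulfite. A CpG cytosine read as thymine in MAB-Seq may therefore have carried 5fC or 5caC, or have escaped the enzyme. Other sources of thymine reads were not examined here. The level of a CpG is the authors' percent value for its plus-strand C. It is read here as the share of converted reads less a background, then rescaled for that background, since the values fitted that form. CpGs between A or T are known from other work as the sequence class whose methylation is maintained least well in late-replicating parts of the genome, most of all where no other CpG is near.

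The class holds 4 cores, in which the CpG stands between the bases A and A, A and T, T and A, or T and T. Each is preceded by any base, which makes 16 sequences of 5 bases. The 4 shown here carry the results below. They were the most frequent sequence, the one with the smallest share at level 0, the one with the largest share at 90% or more, and the one that led on unplaced contigs. Capitals mark the CpG and the bases next to it.
Most frequent: cACGT
Smallest share at 0: gACGA
Largest share at 90% or more: tACGT
Led on unplaced contigs: aACGT
ACGT and TCGA read the same on both strands, and ACGA is the reverse complement of TCGT. A CpG with A or T on both sides thus belongs to the class on either strand. ACGT was the most frequent core with 17567 CpGs, ahead of ACGA with 14581, TCGA with 12885 and TCGT with 12443. Among the sequences of 5 bases, CACGT was listed most often. Its 6768 CpGs made up 11.8% of the class. CACGT opens the palindromic E-box CACGTG, a site of basic helix-loop-helix factors, but the base that follows is not in the file. GACGA followed with 5224 CpGs, and TACGA was the rarest with 1568. For a view of these sequences elsewhere, 32817 RefSeq promoter windows (build GRCm38.p6, 250 bases before to 50 after the start) were searched for the 4 cores as read on the plus strand of the genome, with each CpG counted once. The class is the same on the opposite strand. Of their 358094 CpGs, 9.98% (9.88% to 10.1%) had A or T on both sides, and 64.2% of windows held at least 1. CACGT was also the commonest sequence there, with 12.6% of such CpGs, and TACGA the rarest, with 3.09%. Promoters are richer in G and C than the whole genome, so their share is no expectation for the list.

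Most A/T-flanked CpGs had a low level, within a narrower range than the other CpGs. Their median was 11.03% (95% interval 10.9% to 11.03%), with quartiles of 6.08% and 18.2%. The other CpGs had a median of 11.2% (11.1% to 11.3%), with quartiles of 5.15% and 19.6%. The difference of medians was small, -0.21 percentage points (-0.35 to -0.10). It was 0.10 points (-0.13 to 0.25) when only the A/T-flanked CpGs were limited to A or T as first of the 5 bases. The other CpGs were left unrestricted. Fewer A/T-flanked CpGs were listed at 0, 10333 or 17.98% against 20.5%, a difference of -2.51 points (-2.86 to -2.16). More of them lay above 5% and up to 20%, namely 56.5% against 51.1%. Once CpGs at 0 were set aside, the medians were 13.0% and 13.8%, a difference of -0.82 points (-0.97 to -0.72). At the upper end the interval of the difference held 0, with 1216 A/T-flanked CpGs (2.12%) and 2.08% of the others at 90% or more, a difference of 0.03 points (-0.09 to 0.17). The lower share at 0 was seen on all 20 of the autosomes and X, while the median level was lower on 15, higher on 3 and equal on 2. All intervals cover counting error only, within 1 library, and treat CpGs as independent although neighbours share reads. PCR copies were not told apart.

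**Figure D1:**
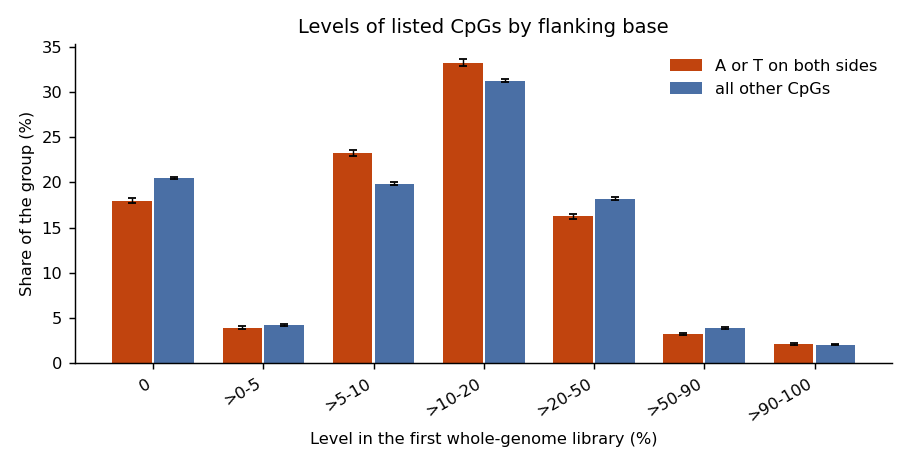
Share of A/T-flanked CpGs and of all other CpGs (y axis, percent of the group) in each range of level in the first whole-genome library (x axis, percent), with exact 95% intervals as error bars. The A/T-flanked bars are higher above 5% and up to 20%, and lower at 0 and from above 20% up to 90%.

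The bases before and after the CpG went with different values. The share at 0 was 24.0% (23.7% to 24.3%) for CpGs with A or T before and G or C after, and 16.2% (15.96% to 16.5%) for those with G or C before and A or T after. CpGs with G or C on both sides had 21.3%. The A/T-flanked class, with 17.98%, thus lay inside the range of the other 3 classes. Its median level without CpGs at 0 lay below theirs, since these had 13.2% with A or T before, 14.1% with A or T after and 14.1% with neither.

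Within the class the share at 0 differed by sequence, over a wider range between first bases than between cores. The share at 0 ran from 11.9% (11.02% to 12.8%) for GACGA to 25.4% (24.4% to 26.5%) for CACGT. The share was 25.3% for CACGA, 24.2% for TTCGT and 23.8% for CTCGT, but 12.1% for AACGA and 12.7% for GTCGA. By first base, CpGs whose first base was C had 23.5% (22.9% to 24.1%) at 0, and those with G, A or T had 13.4%, 14.4% and 18.8%. The other CpGs showed the same order at the top, with 27.7% for a first C and 17.1% to 18.1% for the remaining bases, so a high share with a first C was seen in both groups. By core, TCGT had 21.04% at 0 (20.3% to 21.8%), its reverse complement ACGA 16.7%, ACGT 18.2% and TCGA 16.2%. Median levels differed less, from 9.79% (9.59% to 10.1%) for CACGA to 12.1% (11.6% to 12.5%) for ATCGA.

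At high levels TACGT stood apart. Of its 2806 CpGs, 128 or 4.56% (3.82% to 5.40%) were at 90% or more, and the other 15 sequences ranged from 1.46% for GTCGA to 2.52% for TTCGT. The 128 CpGs were spread over 19 chromosomes, with at most 14 on 1 of them. Their nearest listed CpG was a median of 108 bp away (45 to 297), against 780.5 bp for all TACGT CpGs and 538.5 bp for the class's remaining 1088 CpGs at 90% or more. The second whole-genome library listed 28.1% of them (20.5% to 36.8%) on the plus strand, beside 19.1% of those 1088 (16.8% to 21.6%).

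A/T-flanked CpGs were the more isolated ones in the list. Their nearest listed CpG of any kind was a median of 488 bp away (466 to 512), and that of the other CpGs 115 bp (113 to 117). A listed CpG lay within 100 bp of 34.6% of them and of 48.0% of the others, a difference of -13.4 points (-13.8 to -13.0). None within 1000 bp was found for 42.3% (41.9% to 42.7%) and 30.5%, and none within 10000 bp for 9.78% and 6.53%. The median distance was longer than that of the other CpGs on all 20 of the autosomes and X. A part of this follows from the rule, since a base other than G before the C and other than C after the G leaves no room for a CpG 2 bp away. Such a neighbour was nearest for 3.59% of the other CpGs. Unlisted CpGs are not seen here, so these are distances between calls and not between CpGs. The median distance differed by sequence, from 240 bp (201 to 286) for GACGA to 780.5 bp (657 to 917) for TACGT.

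**Figure D2:**
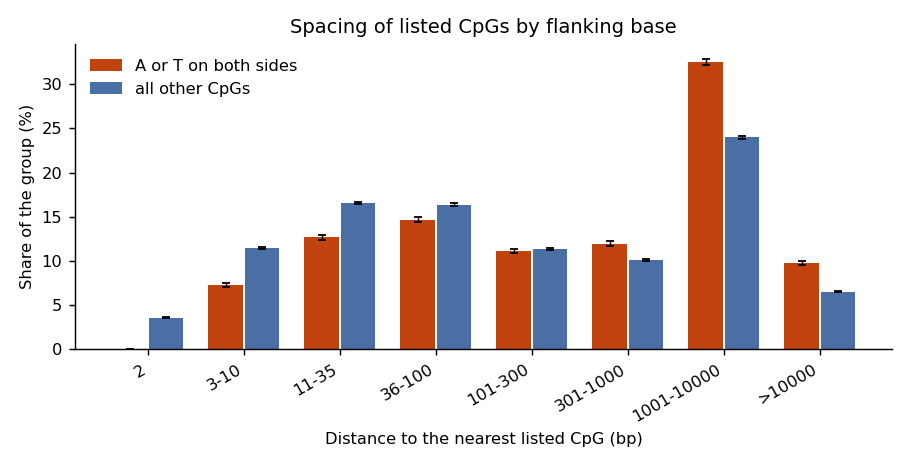
Share of each group (y axis, percent) by distance to the nearest listed CpG (x axis, bp), with exact 95% intervals as error bars. Beyond 300 bp the A/T-flanked bars are higher, most of all above 1000 and up to 10000 bp with 32.5% against 24.0%.

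The median level of the class did not follow the distance in 1 direction. A/T-flanked CpGs with the nearest listed one more than 10000 bp away had a median of 11.4% (11.3% to 11.9%), and those with one at 3 to 10 bp a median of 11.6% (11.1% to 11.96%). It was lower in between, 10.4% (10.2% to 10.7%) above 100 and up to 300 bp. The share at 0 was 14.1% in the most isolated group and 19.4% in the closest one. The nearest listed CpG was A/T-flanked for 22.2% (21.9% to 22.6%) of the class, a larger share than the 15.5% (15.3% to 15.6%) of the others. Neighbours had like levels only over short distances. Across 759 adjacent pairs of A/T-flanked CpGs 3 to 10 bp apart, Spearman's rho was 0.60. It was 0.50 over 1072 pairs at 11 to 35 bp, 0.41 over 1276 pairs at 36 to 100 bp and 0.13 over 1971 pairs above 100 and up to 1000 bp. Pairs of other CpGs had 0.58, 0.31, 0.18 and 0.07 at these distances, and pairs with 1 CpG of each group 0.41, 0.30, 0.22 and 0.10. All of these include the unplaced contigs and dense windows described below, and values without them are not given. Close pairs share reads and library, so the values describe the list.

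The class took a nearly constant share of each autosome. It ranged from 16.04% of listed CpGs on chromosome 11 (15.6% to 16.5%) to 18.5% on chromosome 13 (17.8% to 19.2%), with a median of 17.2% over the 19 autosomes. The X chromosome held 608 A/T-flanked CpGs, 19.5% of its list (18.2% to 21.0%), above the 17.1% of the autosomes together (17.01% to 17.3%). Density on X was low in both groups. A/T-flanked CpGs were listed at 3.65 per Mb on X and 22.6 per Mb on the autosomes, a ratio of 0.161 (0.149 to 0.175). For the other CpGs this ratio was 0.137 (0.132 to 0.143). Lengths were taken as the largest position listed. Fewer copies of X and fewer calls per copy cannot be told apart here.

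**Figure D3:**
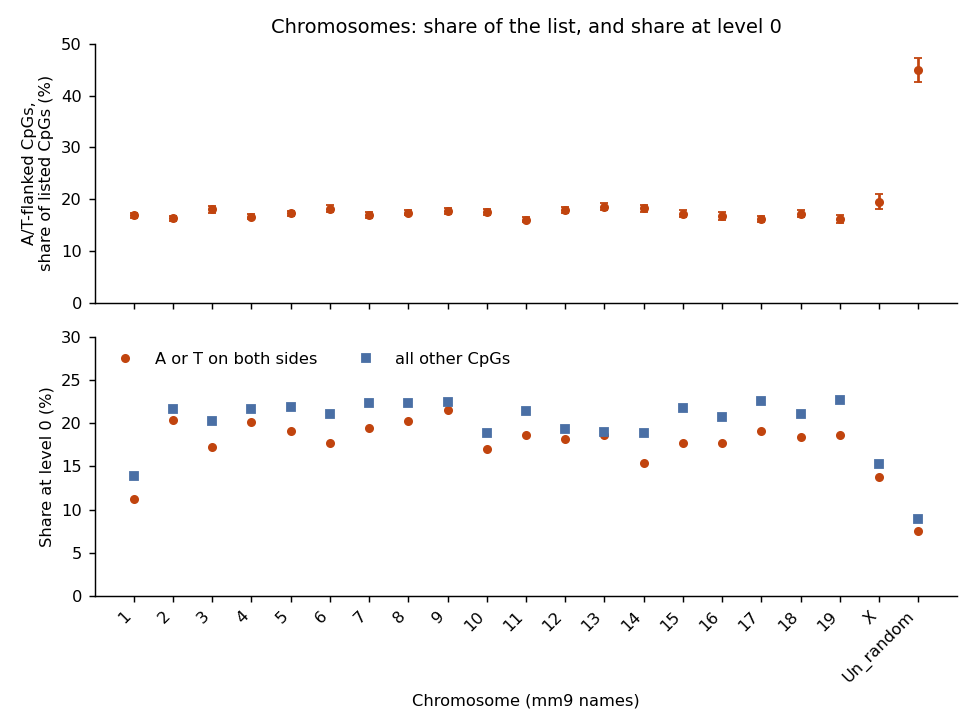
Upper panel, A/T-flanked CpGs as a share of all listed CpGs (y axis, percent, with exact 95% intervals) on each chromosome (x axis). The lower panel gives the share at level 0 in both groups. Autosomes lie between 16.04% and 18.5%, the unplaced contigs (Un_random) at 45.03%, and on every autosome and X the A/T-flanked point is below that of the other CpGs.

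Chromosome 1 departed from the other autosomes in the first library. Its 4901 A/T-flanked CpGs had a median level of 14.1% (13.6% to 14.4%), and the medians of the other 18 autosomes ran from 10% to 11.2%. Their share at 0 was 11.3%, below the 15.4% to 21.6% elsewhere, and 4.18% (3.64% to 4.78%) were at 90% or more. The other CpGs of chromosome 1 had the same median, 14.1%, so the shift is shared by both groups. Of the chromosome's A/T-flanked CpGs, 4.33% were listed by the second library on the plus strand, beside 4.21% of its other CpGs. The other 18 autosomes ran from 4.29% to 8.20% for A/T-flanked CpGs and from 5.21% to 7.23% for the others. The differences between the groups in level, share at 0 and spacing were of like size without this chromosome.

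Unplaced contigs and a few dense windows were rich in the class. On the unplaced contigs (chrUn_random) 829 of 1841 listed CpGs were A/T-flanked, or 45.03% (42.7% to 47.3%), with a median level of 19.6% (17.3% to 20.8%). The 5 windows of 10 kb with the most A/T-flanked CpGs lay on chromosome 9 or on these contigs. On chromosome 9, positions 3000001 to 3010000 held 57 of 95 listed CpGs, positions 3020001 to 3030000 held 53 of 88 and positions 3030001 to 3040000 held 51 of 95. On the unplaced contigs, positions 4060001 to 4070000 held 55 of 93 and positions 5810001 to 5820000 held 50 of 92. Over all 42725 windows with any such CpG the median was 1. Coordinates are those of build mm9, and the annotation of these windows was not used here.

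The windows on chromosome 9 and those on unplaced contigs differed in sequence, level and strand. In the 3 windows on chromosome 9, 104 of the 161 A/T-flanked CpGs were CACGT, and 105 of the 161 were at 0 (65.2%, 57.3% to 72.5%). The second library listed 112 of the 161 on the minus strand and 63 on the plus strand. Shares of the other CpGs in these windows are not given. On unplaced contigs AACGT led with 396 of 829 CpGs, with 9 of the 396 at 0 and a median level of 16.6% (15.3% to 19.7%). There the second library listed 418 of the 829 on the plus strand (50.4%) and 86 on the minus strand (10.4%). The other CpGs of these contigs had similar shares, 48.0% and 10.8%. For the comparisons below, 27 windows in which 20 or more bases were listed by both whole-genome libraries were set aside with all unplaced, random and mitochondrial sequence. Of these windows, 18 lay on unplaced or random contigs. They are called dense windows here and hold, with the unplaced sequence, 1182 A/T-flanked CpGs (2.06%) and 0.716% of the others. This choice was made after the data were seen and uses the second library's listings, so it lowers the shares listed there by construction.

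The second whole-genome library gave p-values for single cytosines on both strands, with 59265 positions for plus and 59237 for minus. Over all CpGs of the first list it held 6.3% by their plus-strand base and 2.23% by their minus-strand base. Of A/T-flanked CpGs, 3598 were listed on the plus strand (6.26%, 6.06% to 6.46%) and 6.31% of the others, a difference of -0.05 points (-0.26 to 0.17). On the minus strand 1062 were listed (1.85%, 1.74% to 1.96%) against 2.31%, a difference of -0.46 points (-0.58 to -0.33). The other CpGs varied with the side of the A or T. Minus-strand listing was 3.16% with A or T before only, 1.49% with A or T after only and 2.35% with neither. Plus-strand listing was 5.04%, 7.81% and 6.04% in the same order. Over the whole list the A/T-flanked share thus lay inside the range of the other flank classes on both strands. Outside dense windows and unplaced sequence the class had 5.46% on the plus strand against 6.08%, a difference of -0.62 points (-0.82 to -0.41), and 1.48% on the minus strand against 2.22%. The near equality on the plus strand over the whole list thus included 525 plus-strand listings from 1182 CpGs. Listing on both strands showed this most. It applied to 0.182% of all CpGs of the first list and to 188 A/T-flanked ones, 0.327% (0.282% to 0.377%) against 0.152% of the others, and outside those sequences to 62, 0.110% against 0.103%, where the difference was 0.01 points (-0.02 to 0.04).

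Listing on the plus strand went up with the level, and listing on the minus strand was most frequent at level 0. Of A/T-flanked CpGs at 0 in the first library, 1.08% (0.893% to 1.30%) were listed by the second on the plus strand and 6.63% (6.16% to 7.13%) on the minus strand. Above 10% and up to 20% the shares were 6.78% and 0.419%, and above 90% they were 20.1% (17.9% to 22.5%) and 2.31%. Accordingly, 685 of the 1062 A/T-flanked CpGs listed on the minus strand were at 0, or 64.5% (61.5% to 67.4%), but 3.11% of the 3598 listed on the plus strand. The other CpGs had 66.1% and 2.87%. The first file gives a level for the plus-strand cytosine alone. Over the whole list the sign of the difference between the groups on the plus strand varied with the level. The ranges of level include dense windows and unplaced sequence, and shares without these are not given. There the second library listed 44.4% of A/T-flanked and 38.2% of other CpGs on the plus strand. In the whole list, above 0 and up to 5%, more A/T-flanked than other CpGs were listed, 5.24% (4.36% to 6.24%) against 3.67% (3.33% to 4.03%). The same held above 20% and up to 50%, with 8.70% (8.13% to 9.29%) against 7.88% (7.65% to 8.12%). Above 50% and up to 90% fewer were listed, 13.4% (11.9% to 15.0%) against 17.8% (17.03% to 18.5%). In the other bins the intervals of both groups overlapped, as with 6.78% and 6.83% above 10% and up to 20%.

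**Figure D4:**
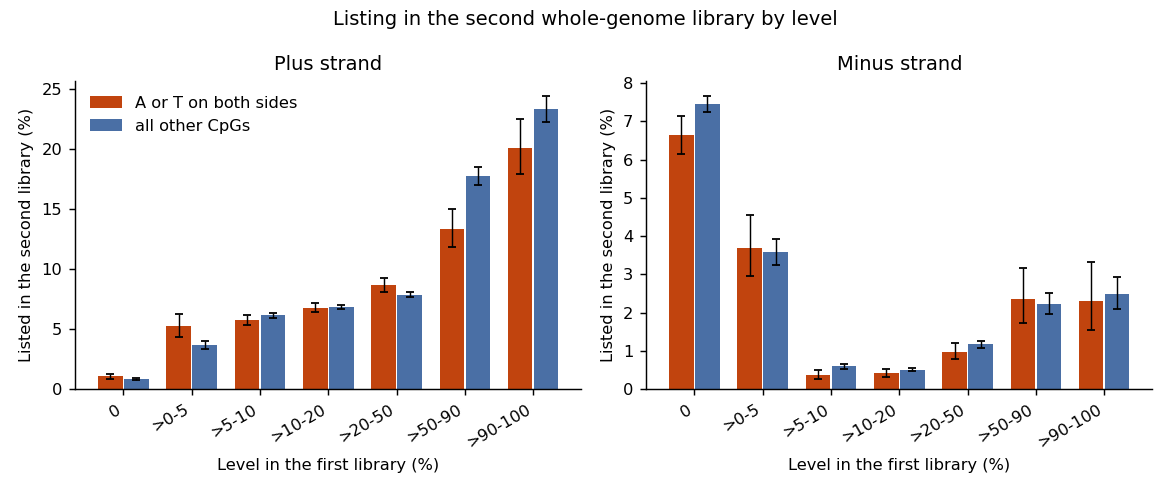
Share of CpGs listed by the second whole-genome library (y axis, percent) on the plus strand (left) and minus strand (right) by level in the first library (x axis, percent), for A/T-flanked and all other CpGs with exact 95% intervals. The plus-strand shares go from 1.08% at level 0 to 20.1% above 90% in the A/T-flanked group, and the minus-strand share is highest at level 0 in both groups. The axes of the panels differ.

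Reads of the second library could be recovered where its p-value was above 1e-07. At 2724 A/T-flanked CpGs listed on the plus strand the median was 15 reads (quartiles 11 and 22) with 4 converted, a median fraction of 27.3% before background correction. The other CpGs also had 15 reads, 4 converted and 27.3%, so read numbers were alike in both groups where they could be recovered. These bases are the ones called in the second library, with p-values of at most 0.00997 and at least 10 reads. A fraction well above the background was thus needed for a base to be in the list, so the fractions are not set beside first-library levels here. P-values at or below 1e-07 made up 24.2% of the plus-strand listings of A/T-flanked CpGs and 28.3% of the others. Outside dense windows and unplaced sequence these shares were 18.6% and 26.7%.

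By sequence, AACGT was listed most often on the plus strand, 11.6% (10.6% to 12.7%), and CTCGA least, 4.00% (3.45% to 4.61%). Of AACGT CpGs, 11.05% lay in dense windows or unplaced sequence, and outside these its share was 6.45%. TACGT then led with 7.60%. On the minus strand CACGT led with 3.97% (3.52% to 4.47%), or 2.49% outside those sequences, and AACGA was lowest with 0.780%.

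In reduced-representation DNA few of these CpGs were listed, and more with Tdg shRNA than with control shRNA, although the whole list was shorter with Tdg shRNA (8948 positions) than with control shRNA (12895). Over all CpGs of the first list, 0.124% were listed at the same base with control shRNA and 0.189% with Tdg shRNA. The control shRNA library listed 56 A/T-flanked CpGs, 0.0974% (0.0736% to 0.127%), against 0.130% of the others, a difference of -0.03 points (-0.06 to -0.00056). Without chromosome 1 this was -0.03 points (-0.06 to 0.0041). The Tdg shRNA library listed 168, 0.292% (0.250% to 0.340%), against 0.168%, a difference of 0.12 points (0.08 to 0.17). Tdg to control shRNA listings stood at a ratio of 3.00 (2.20 to 4.14) for A/T-flanked CpGs and 1.29 (1.12 to 1.49) for the others. Of the 168, 105 lay in dense windows or unplaced sequence, 8.88% (7.32% to 10.7%) of the A/T-flanked CpGs there. Of the other CpGs there, 154 were listed with Tdg shRNA, or 7.84% (6.69% to 9.11%), with overlapping intervals. Outside dense windows and unplaced sequence 63 listings with Tdg shRNA stood against 46 with control shRNA (ratio 1.37, 0.922 to 2.05). The other CpGs had 306 against 331 (ratio 0.924, 0.789 to 1.08). The share listed with Tdg shRNA was then 0.112% in both groups. Each shRNA group was 1 library of unknown depth, so there is no replicate check.

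**Figure D5:**
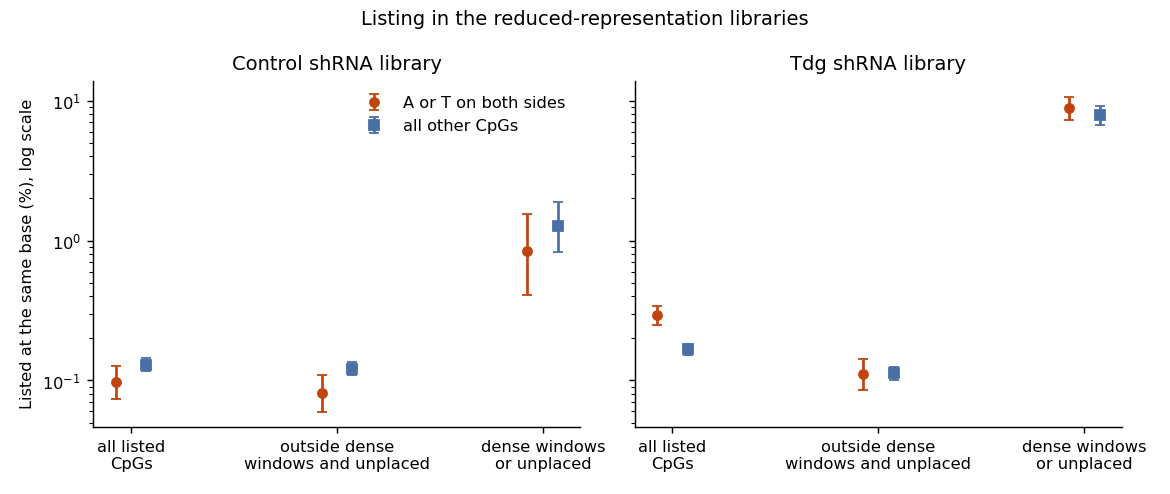
Share of CpGs of the first list that the control shRNA (left) and Tdg shRNA (right) libraries listed at the same base (y axis, percent, log scale), over all CpGs, outside and inside dense windows or unplaced sequence, with exact 95% intervals. With Tdg shRNA the groups differ over all CpGs, 0.292% against 0.168%, and coincide at 0.112% outside dense windows and unplaced sequence.

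Over the whole list, ACGT carried most of the listings with Tdg shRNA. It accounted for 99 of the 168, or 0.564% of ACGT CpGs (0.458% to 0.686%), and the other cores had 20 to 26 listings each. CACGT gave 50 of the 99 and AACGT 25. Of ACGT CpGs, 3.65% lay in dense windows or unplaced sequence, against 1.87% for ACGA, 1.20% for TCGT and 0.924% for TCGA. Listings by core outside these sequences are not given. With control shRNA, ACGT accounted for 19 of 56. In the 3 dense windows on chromosome 9, the Tdg shRNA library listed 51 A/T-flanked CpGs and the control shRNA library 1.

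Levels at shared bases differed between the libraries by amounts that differed with the CpGs that were shared. At the 168 A/T-flanked CpGs listed with Tdg shRNA, the median was 12.9% (10.6% to 15.4%) with Tdg shRNA and 7.53% (3.81% to 11.1%) in the first whole-genome library. The median difference was 5.28 points (2.78 to 6.64), and the Tdg shRNA level was higher at 107 and lower at 57. Outside dense windows and unplaced sequence it was 2.73 points (-0.40 to 8.41), with 35 higher and 25 lower. The other CpGs listed with Tdg shRNA had a median difference of 4.74 points (3.30 to 6.19), with 296 higher and 144 lower. Outside dense windows and unplaced sequence theirs was 2.62 points (0.97 to 5.12), with 178 higher and 110 lower, close to that of the A/T-flanked CpGs. At the 56 listed with control shRNA, 25 were higher, 25 were lower and the median difference was 0 (-1.17 to 5.33). Bases were kept here because the shRNA library had called them, while the first list also holds CpGs at 0. At 46 of the 168 and 12 of the 56 the first library gave 0, so the shRNA level could not be lower there. At the 24 A/T-flanked CpGs listed in both shRNA libraries, the level was lower with Tdg shRNA at 15 and higher at 4, with a median difference of -1.89 points (-7.69 to 0). Outside dense windows and unplaced sequence 15 such CpGs were left, lower at 9 and higher at 2. Of the 103 other CpGs listed in both shRNA libraries, 52 were lower and 23 higher with Tdg shRNA. Their median difference was -0.01 points (-2.35 to 0). Without dense windows and unplaced sequence 83 of them were left, lower at 35 and higher at 21.

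Of all CpGs of the first list, 57 or 0.0172% were listed at the same base in all 4 libraries, and 12 of these were A/T-flanked. Their share of the class was 0.0209% (0.0108% to 0.0365%), beside 0.0164% (0.0120% to 0.0219%) of the other CpGs, with overlapping intervals. The core of the 12 was ACGT at 8, ACGA at 3 and TCGT at the remaining site. Levels in the first library were under 12% at 11 of the 12, and at 17 of the 45 other CpGs listed in all 4 libraries. Outside dense windows and unplaced sequence this held for 3 of 4 A/T-flanked and 4 of 26 other CpGs. Of the 12 A/T-flanked CpGs, 6 lay on chromosome 2 between positions 98503013 and 98507412, inside 1 dense window. AACGT at chromosome 2 position 98507264 had levels of 3.09% in the first whole-genome library, 2.54% with control shRNA and 2.87% with Tdg shRNA. AACGT at position 98507013 had 3.81%, 9.89% and 2.79%. GACGT at position 98503013 had 4.64%, 4.74% and 1.31%, at position 98507352 it had 8.66%, 3.34% and 1.66%, and at position 98507412 it had 3.81%, 2.27% and 4.23%. These levels on chromosome 2 were all under 10%. GACGA at position 98506982 was at 0 in the first library, had a p-value of 2.05e-11 in the second and was at 9.37% and 2.99% with control and Tdg shRNA.

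The rest lay on chromosomes 4, 8 and 9 and on an unplaced contig. On chromosome 9, GACGA at position 35113003 had 2.58%, 3.95% and 1.85% in the same order of libraries, and AACGT 16 bp further, at 35113019, had 2.99%, 2.01% and 4.11%. CTCGT on chromosome 4 at position 70039252 had 11.1% in the first whole-genome library, 43.8% with control shRNA and 19.6% with Tdg shRNA. GACGA on the unplaced contigs at position 3922153 had 10.6%, 9.44% and 4.21%. The second library's p-value was listed as 0 at 9 of the 12, and its minus strand was listed at 8. The level was lower with Tdg shRNA than with control shRNA at 9 of the 12 and higher at 3, and among the 45 other CpGs it was lower at 29, higher at 6 and equal at 10. These CpGs are few, most share a window, and no test between the shRNA groups was possible with 1 library each.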

How the data were processed

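Members and comparisons were chosen with earlier results of these data known. CASAVA 1.8, Bismark 0.10.1 and build mm9 are named in the submitters' processing notes, and the rule for calling sites is not given in the sources used here. The authors deposited a percent value per cytosine for 3 libraries (wild type replicate 1 and both shRNA groups). For the second whole-genome library they deposited a p-value per cytosine, at most 0.00997. First-library values between 0 and 100 all equalled percentages with 1 decimal after the background correction was reversed (tolerance 1e-06 of that decimal). For this, each value was multiplied by 1 minus the background of 3%, and the background was then added. Second-library p-values above 1e-07 were matched to binomial upper tails at a background of 3.8% (relative tolerance 1e-08). A single pair of read numbers fitted 99.97% of them, which gave reads at 85.3% of its sites, with a median of 13. Depth of the percent files is unknown.

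Positions count from 1. A minus-strand base belongs to the CpG whose plus-strand C lies 1 base before it. Both shRNA files mark all positions as plus, so strand is unknown there. Shares carry exact Clopper-Pearson 95% intervals, medians order-statistic intervals, ratios of counts exact conditional binomial intervals, and differences square-and-add intervals. No p-value was computed, since each comparison rests on single libraries. The coverage minimum and site tests that the design allowed for counts were not run, because the files hold none. The rule for named features took all 16 sequences, the 5 windows of 10 kb with most members, and members listed in all 4 libraries (of 12, the 10 with the smallest p-values). Interval and matching code was tested on simulated data. Python 3.11.15, numpy 2.4.6, pandas 2.3.3 and scipy 1.17.1 were used.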

Additional observations from a re-analysis of the deposited data

How the results depend on the processing

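Of 62 alternative values for the main comparisons, 46 left the call as it was (for a difference, whether its interval held 0; for a share or ratio, a value inside the main interval). Among these the difference in the share at 90% or more turned sign without chromosome 1, to -0.0610 points (-0.188 to 0.0714), with intervals that held 0 both ways. With the A/T-flanked CpGs alone limited to A or T as first base, the difference in median level turned to 0.103 points. That in the share at 90% or more became 0.270 points, with an interval above 0. The difference in plus-strand listing was -0.309 points without CpGs at 0, -0.312 with p-values at or below 0.0001, and -0.481 without windows of 20 or more listed CpGs. On the minus strand it was -0.0931 points, with an interval that held 0, at levels above 10% and up to 20%. The Tdg shRNA difference turned to -0.00454 points without windows of 20 or more listed CpGs. Alternatives chosen after seeing the data left out dense windows with unplaced sequence, or chromosome 1, and all those for the class's share of the list. Without dense windows and unplaced sequence, the plus-strand difference was -0.617, the both-strand difference 0.00736, the Tdg shRNA difference -0.000408 and the ratio of Tdg to control shRNA listings 1.37. Without chromosome 1 the control shRNA difference was -0.0300 with an interval that held 0. The class made up 17.8% of the list without CpGs at 0, 17.2% without unplaced sequence, 17.5% without windows of 20 or more listed CpGs and 17.1% without dense windows and unplaced sequence. The cause of these shifts was not tested. Of 115 further values, for the levels, distances, listings, ratios and X or autosome shares of the class or of the other CpGs, 67 left the main value's interval. Single sequences of 5 bases were not run under the alternatives.

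No paired analysis was possible because each shRNA group had 1 library and the wild-type libraries form 1 group. Leaving out the first wild-type library gave no value, since it alone gives the bases around each CpG and no genome of the build was used here. Lists of called sites do not show CpGs that were covered and not called, and the lack of replicates leaves differences between libraries untested.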
